A study of Homo sapiens with 8 samples.

Results

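The step from 10 to 50 μM maleic acid was examined in SH-SY5Y cells, a human neuroblastoma line with noradrenergic features that is widely used as a model of neurons. The comparison took every array labelled with 1 of these doses, which gave 4 of the 8 arrays of the series, 2 at 50 μM and 2 at 10 μM, and all 31741 probes of the deposited table. The remaining arrays were 2 of untreated control cells and 2 of cells given 100 μM. Cells carried no other treatment and exposure lasted 24 h at each dose. Antisense RNA amplified from total RNA was labelled with Cy5 and hybridised to a whole-genome oligonucleotide array, with 1 RNA sample per array. The 2 arrays of a dose were labelled as technical replicates of 1 RNA sample, so each dose was represented by 1 sample of 1 cell line and the difference between doses had no replicate check.

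Maleic acid is a small dicarboxylic acid, the cis isomer of fumaric acid. It is known from animal work as a poison of the renal proximal tubule, and it can react with thiols such as glutathione. Cells commonly answer a loss of glutathione through NRF2, a transcription factor that switches on genes of glutathione synthesis and detoxification, and a stress on protein folding or amino acid supply through ATF4. The clustered histone genes encode the proteins that package DNA and are transcribed mainly while DNA is being copied, so their mRNAs follow the share of cells in S phase.

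Intensities were placed on a common scale by quantile normalization over the 8 arrays and are given as log2 values, so that a difference of 1 is a 2-fold difference. Values of 1 dose are given as first array and second array. A probe was called over 2-fold when the means of both doses differed by more than 1 on this scale. A probe was called beyond array noise when limma's adjusted p (Benjamini-Hochberg over all probes) was under 0.05, with the spread taken between technical arrays. Such a call, and each standard error (SE, n = 2 arrays per dose), compares 2 RNA samples and covers the error of hybridisation, not the spread between cultures. A normalized intensity under 50 was treated as background level.

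Most transcripts were at about the same level at both doses. The median log2 difference over all probes was 0.01, 94.1% of probes lay within 0.5 of 0, and the 1st and 99th percentiles were −0.82 and 0.67. At 50 μM, 95 probes were over 2-fold higher (0.299% of those tested) and 165 were over 2-fold lower (0.52%), together 0.819%. This split between higher and lower depended on the scaling, since median scaling gave 73 and 76, cyclic loess gave 65 and 79, and no scaling gave 404 and 29 with the median of all probes at 0.45. Leaving out any 1 of the 4 arrays raised the counts, to 136 to 224 higher and 235 to 379 lower. The 2 arrays at 10 μM differed over 2-fold from each other at 542 probes and the 2 arrays at 50 μM at 570 probes, while single arrays of different doses differed at 514 to 672 probes. A pair of arrays of different doses was therefore in 1 case closer than either technical pair. Many of the probes were dim, and 35 of the 95 and 51 of the 165 were under the background level on all 4 arrays. At or above it on all 4 were 12 of the 95 and 59 of the 165, against 84.5% of all probes.

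Only 3 probes (0.00945%) were beyond array noise, 1 higher (0.00315%) and 2 lower (0.0063%). Without adjustment, 1424 probes were higher (4.49%) and 1438 lower (4.53%) at p under 0.05. The same fit placed 547 probes higher and 498 lower beyond array noise between control and 10 μM, and 78 higher and 21 lower between 50 and 100 μM. The median size of a log2 difference was 0.13 for the step from 10 to 50 μM, against 0.22 for that between control and 10 μM and 0.19 for the last step, to 100 μM. These steps share arrays with the step described here, so they are given side by side without a comparison. In simulated data of the same size, with 200 changed probes, the procedure recovered 63% of those changed by a log2 value of 1. It recovered 90% of those changed by 2 and made 8 false calls. The simulation drew normal noise from the spread between technical arrays and had no scaling step. Its 200 changes also ease the adjusted threshold, so these shares do not give the share of real changes found here.

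**Figure D1:**
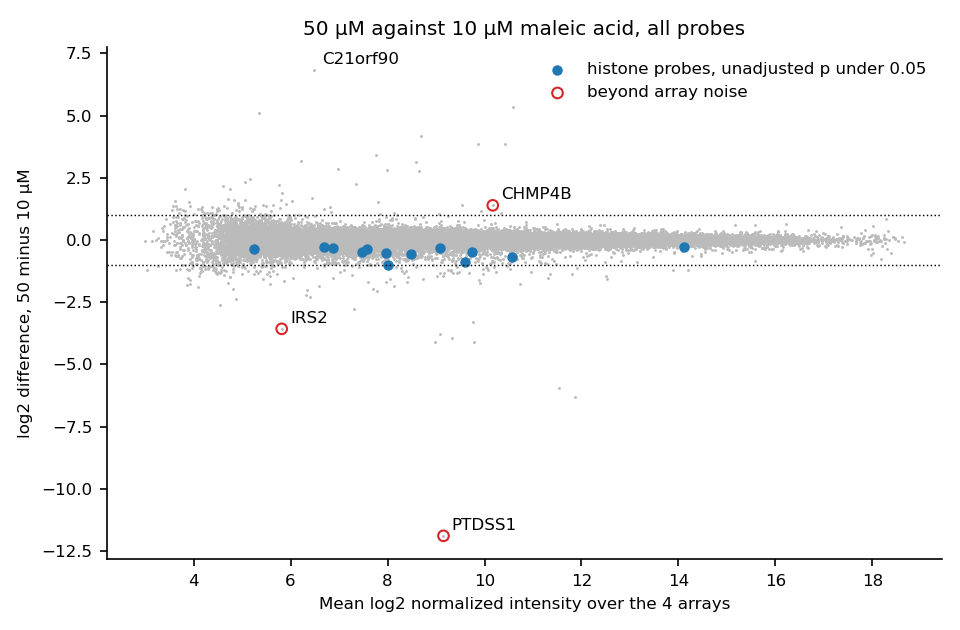
Each grey point is 1 of the 31741 probes, with its mean log2 normalized intensity over the 4 arrays on the x axis and its log2 difference, 50 minus 10 μM, on the y axis. Dotted lines mark 2-fold, red rings the 3 probes beyond array noise and blue points the probes of histone genes at an unadjusted p under 0.05. The largest differences in either direction are PTDSS1 at −11.89 and C21orf90 at 6.82.

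The largest difference belonged to the probe of PTDSS1, the enzyme that makes phosphatidylserine from phosphatidylcholine. Its log2 values were 14.99 and 15.20 at 10 μM and 3.05 and 3.37 at 50 μM, and the deposited intensities behind them were 27536 and 31470 against 41 and 31. The probe was also at background level in control cells, at 4.09 and 3.15, and at 100 μM, at 3.42 and 3.31. Thus both 10 μM arrays stood apart from the other 6 arrays, which held the probe at background level. No other probe had PTDSS1 as its 1 symbol, so the gene rested on this probe. Its signal was at least 701-fold lower at 50 μM (log2 difference −11.89, SE 0.29, adjusted p from limma 0.00011). As for each bound given here, the dim dose was set at the background level. The call was lost under median scaling (adjusted p 0.999947), cyclic loess (0.392) and no scaling (0.0739), where the log2 difference was still −10.14, −10.18 and −9.69.

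The opposite pattern, dim only at 50 μM, was seen for 1 of the probes of IRS2, which encodes an adaptor that links the insulin and IGF-1 receptors to PI3K. This probe read 7.51 and 7.69 at 10 μM and 4.33 and 3.73 at 50 μM. It read 7.56 and 7.54 in control cells and 6.49 and 6.46 at 100 μM, so both 50 μM arrays were the lowest of the 8. The level was at least 3.88-fold lower at 50 than at 10 μM (log2 difference −3.57, SE 0.19, adjusted p from limma 0.00961). The other IRS2 probe on the array gave 14.97 and 14.67 at 10 μM and 15.00 and 15.17 at 50 μM, a difference of 0.27 (SE 0.14) that was not beyond array noise. The probes of IRS2 therefore disagreed in direction, and the mean over both, −1.65, rested on the dim one. The call was lost without the second 10 μM array (adjusted p 0.133) and under the 3 alternatives of scaling named for PTDSS1 (0.0739 to 0.494), with log2 differences of −3.48 and of −2.13 to −2.62.

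CHMP4B, a subunit of the ESCRT-III complex that cuts membranes in cytokinesis and endosomal sorting, was the 1 probe beyond array noise that was higher. Its values were 9.46 and 9.49 at 10 μM and 10.88 and 10.85 at 50 μM. It returned values of 9.41 and 9.28 in control cells and 9.37 and 9.35 at 100 μM, so that the 50 μM arrays alone were high. The log2 difference was 1.39 (SE 0.09, adjusted p from limma 0.0259), and the adjusted p was above 0.05 when any 1 of the 4 arrays was left out (0.0785 to 0.19), under other scalings or none (0.0739 to 0.473), and with only the 4 arrays (0.119). The log2 difference itself was 1.34 to 1.79 in these alternatives. The call held with a floor of 32 (adjusted p from limma 0.00607), with an offset of 50 (0.00165) and without dim probes (0.0101). A second, brighter CHMP4B probe read 14.92 and 15.13 at 10 μM and 15.10 and 15.00 at 50 μM, a difference of 0.03. That probe read 3.42 on 1 of the 100 μM arrays and 14.36 on the other, which gave it an SE of 3.01.

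C21orf90, an open reading frame named by its chromosome, was the mirror image of PTDSS1 and was chosen because of its values. It read 3.37 and 2.77 at 10 μM and 9.92 and 9.86 at 50 μM. Control cells gave 4.81 and 2.68 and cells at 100 μM gave 3.42 and 3.22, so this probe was above the background level at 50 μM only. It was at least 19-fold higher at 50 μM (log2 difference 6.82, SE 0.61) but not beyond array noise (adjusted p from limma 0.128). It did pass with a floor of 32 (1.91174e-05), with an offset of 50 (9.8591e-06), without dim probes (0.0455) and with only the 4 arrays of both doses (0.0059).

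**Figure D2:**
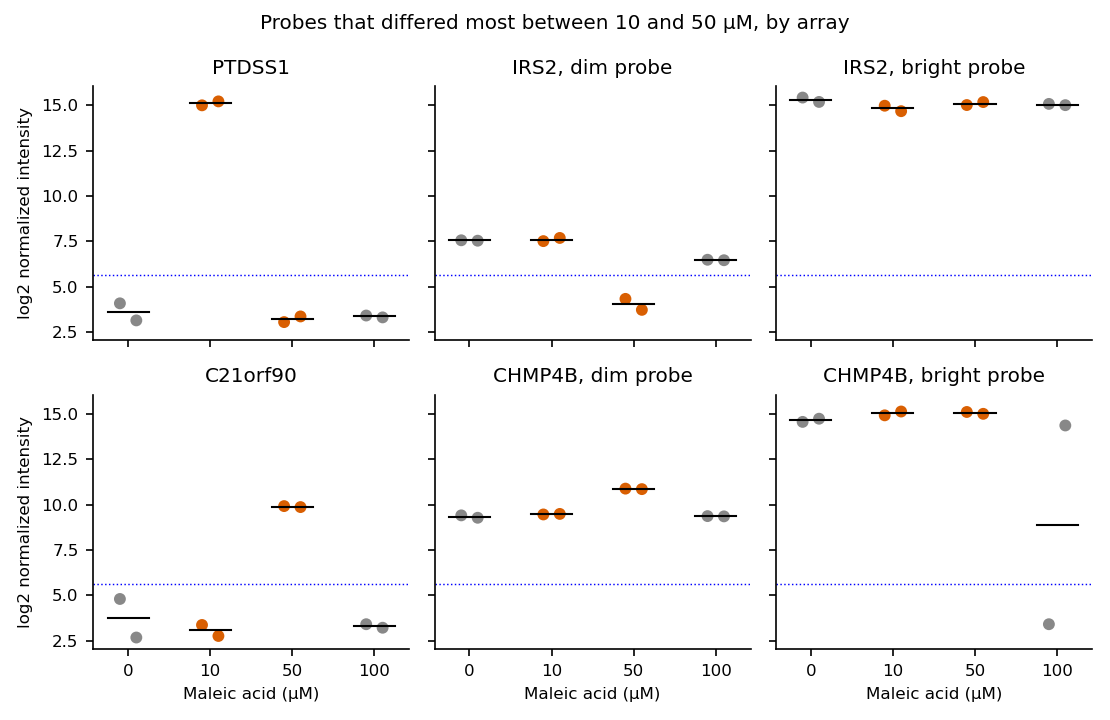
Log2 normalized intensity (y axis) on each array at 0, 10, 50 and 100 μM maleic acid (x axis) for 6 probes, with points for arrays, orange for 10 and 50 μM, black bars for the mean of a dose and the blue dotted line for the background level of 50. PTDSS1 is high at 10 μM only and C21orf90 at 50 μM only, while the bright probes of IRS2 and CHMP4B lie within 0.3 between 10 and 50 μM.

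Among brighter probes, 11 of the 95 higher ones had all 4 arrays at or above the background level and doses that did not overlap, and 8 of these had 1 gene symbol. Over all probes, 21.8% had both 50 μM arrays above both 10 μM arrays. None of the genes named in this and the next paragraph passed the test for array noise apart from CHMP4B, and they were chosen after their values were seen. CLC, the Charcot-Leyden crystal protein of eosinophils, read 8.62 and 9.03 at 10 μM and 10.50 and 9.97 at 50 μM (difference 1.41, SE 0.23). CSDC2, an RNA-binding protein with a cold-shock domain, read 9.74 and 8.98 at 10 μM and 10.41 and 10.61 at 50 μM (1.15, SE 0.28), whereas its other probe differed by 0.23 (SE 0.12). CALB2 encodes the neuronal calcium buffer calretinin and read 7.28 and 7.87 at 10 μM and 8.68 and 8.67 at 50 μM (1.10, SE 0.45). For these 3 probes both 50 μM arrays were high. For others a single array carried the difference. FOXB2, a forkhead transcription factor, read 6.42 and 6.71 at 10 μM and 6.79 and 12.01 at 50 μM. SRP72, a protein of the signal recognition particle, read 6.26 and 6.05 at 10 μM and 8.60 and 6.33 at 50 μM. DENND11 at 1.51 and the chemokine CCL5 at 1.04 completed the group, but another, brighter DENND11 probe gave 0.28 (SE 0.22) and another CCL5 probe −0.54 (SE 0.76).

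Of the 165 lower probes, 49 had all 4 arrays at or above the background level and doses that did not overlap, 32 of them with 1 symbol. Both 50 μM arrays were below both 10 μM arrays at 19.1% of all probes. CCKBR, a receptor of cholecystokinin and gastrin, read 9.75 and 9.74 at 10 μM and 8.13 and 8.43 at 50 μM (−1.46, SE 0.30). NTN1, which encodes the axon guidance cue netrin-1, read 9.84 and 9.81 at 10 μM and 8.55 and 8.48 at 50 μM (−1.31, SE 0.13). Both arrays of each dose were close together for these genes, but a second NTN1 probe differed by −0.08 (SE 0.30). DHH, the Desert hedgehog ligand, read 9.87 and 9.12 against 7.87 and 8.03 (−1.55, SE 0.30). CD28, a co-stimulatory receptor of T cells, read 7.76 and 8.18 at 10 μM and 6.56 and 6.60 at 50 μM (−1.39, SE 0.17). It read 6.51 and 6.42 at 100 μM, below the 7.65 and 7.36 of control cells. PDS5A, a regulator of cohesin, read 7.66 and 7.61 at 10 μM and 5.97 and 6.28 at 50 μM (−1.51, SE 0.20), whereas its brighter probe was 0.34 higher (SE 0.09). CD84 had the largest difference of the 32 (−1.72, SE 0.83). It read 10.54 and 10.98 at 10 μM and 7.62 and 10.47 at 50 μM, so 1 array carried the difference. Its other probe differed by 0.005 (SE 0.25). TAOK2 at −1.55, SRD5A3 at −1.43 and CCL15 at −1.34 had other probes at −0.14, 0.07 and 0.48.

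These 49 probes were picked for high values at 10 μM and low values at 50 μM, so their means at 10 μM being above control in 49 and at 100 μM above 50 μM in 41 use the arrays of the choice and are a description. Arrays that the choice did not use gave a mean at 100 μM above control in 31 of the 49, against 46.7% of all probes. The deposited median intensities were lower at 10 and 100 μM than at the other doses. They were 405 and 336 at 10 μM and 360 and 414 at 100 μM, against 484 and 479 in control cells and 488 and 524 at 50 μM. The part of these medians in the result was not tested.

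**Figure D3:**
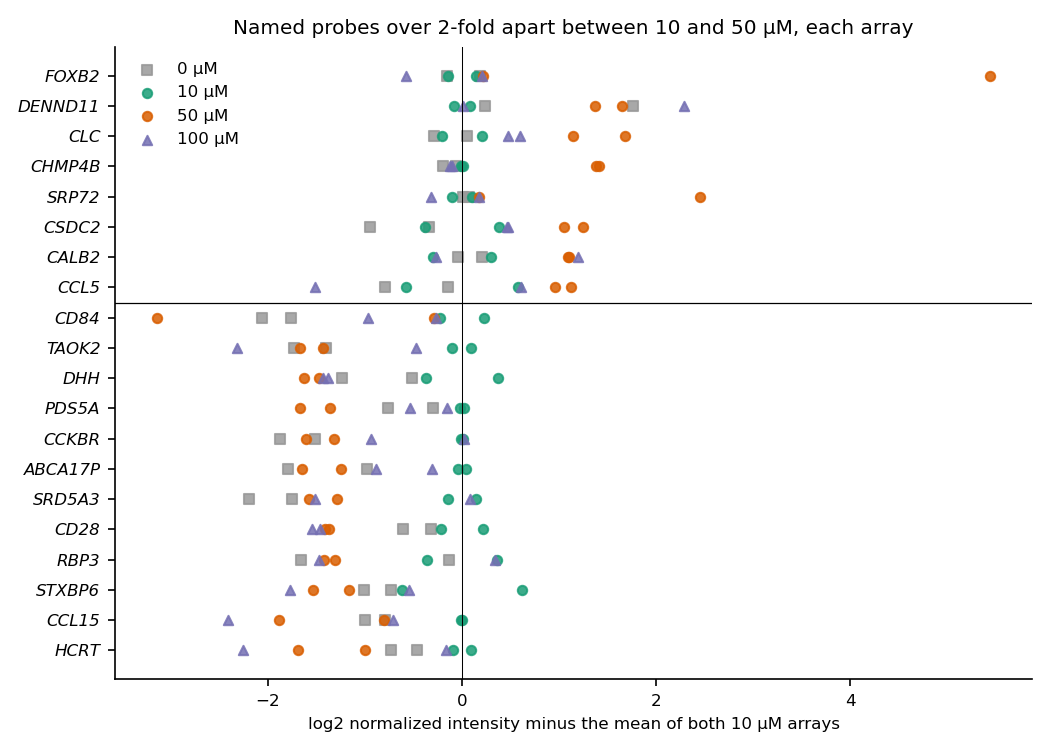
Log2 normalized intensity of each of the 8 arrays minus the mean of both 10 μM arrays (x axis) for the 8 named higher probes (top) and the 12 lowest of the named lower probes (bottom), with colour and marker for the dose. FOXB2 and SRP72 have 1 high array at 50 μM, while CLC, CSDC2, CCKBR and CD28 have both 50 μM arrays on the same side.

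The clustered histone genes were the list with the largest share of lower genes. Of 53 measured genes, 14 were lower at 50 μM at an unadjusted p under 0.05, or 26.4% of them, against 4.1% of all 18255 genes. One histone gene, H2AC20, was higher (0.24, SE 0.10), against 4.78% of all genes. None was beyond array noise after adjustment over all genes (2 of all genes lower, or 0.011%, and 0 higher), and the median over the 53 genes was −0.10, against 0.01 for all genes. In 34 of the 53 the difference was below 0. Over all 53 genes, whichever their p, both 50 μM arrays were below both 10 μM arrays for 21 (18.5% of all genes) and above them for 8 (22.4% of all genes). Without the second 50 μM array 8 genes passed in place of 14, with median scaling 8 and without scaling 1. The 14 genes were below the median of all genes under each of the scaling alternatives. Unscaled, with the median of all genes at 0.45, 6 of the 14 were below 0.

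Linker histones, the H1 proteins that bind DNA between nucleosomes, gave 4 lower genes of 6. H1-4 read 8.48 and 8.52 at 10 μM and 7.54 and 7.46 at 50 μM (−1.003, SE 0.11). H1-3 read 10.93 and 10.91 at 10 μM and 10.29 and 10.16 at 50 μM (−0.70, SE 0.10). In both genes the arrays of a dose lay within 0.2 of each other and the doses were well apart. H1-2 differed by −0.31 (SE 0.08). H1-1 differed by −0.35 (SE 0.11) but was highest at 100 μM, at 8.17 and 8.04, and the other members, H1-5 and H1-6, did not pass the test at unadjusted p.

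Core histones form the spool around which DNA is wound. Of these, 5 of 15 H2A genes, 2 of 10 H2B genes, 2 of 11 H3 genes and 1 of 11 H4 genes were lower. H2AC17 read 10.02 and 10.07 at 10 μM and 9.11 and 9.22 at 50 μM, a difference of −0.88 (SE 0.08). The H2B gene HIST1H2BG read 8.15 and 8.31 at 10 μM and 7.74 and 7.65 at 50 μM (−0.53, SE 0.10), and went to 7.13 and 7.17 at 100 μM. H3C4 differed by −0.55 (SE 0.16), H2BC11 by −0.50 (SE 0.14) and H2AC8 by −0.50 (SE 0.20), and the remaining lower core histones by −0.23 to −0.36. Of these, H2AC7 was under the background level on all 4 arrays, at 5.40 and 5.44 at 10 μM and 5.06 on both 50 μM arrays. Many histone genes were dim, and 7 of the 53 were above the median gene on all 4 arrays. The core histone genes are near-identical copies, so a probe may read several of them. Most of their mRNAs end in a stem-loop in place of a poly(A) tail.

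Across all doses the 14 genes had a median log2 difference of −0.43 between 10 and 50 μM, after 0.14 between control and 10 μM and before −0.20 at the last step, to 100 μM. At 100 μM, 13 of the 14 were below control, with a median of −0.60, and H1-1 was the exception. These 2 doses share no array with the step from 10 to 50 μM. Of all 53 histone genes, 40 were below control at 100 μM, against 53.6% of all genes, and the genes outside the 14 had a median of −0.28.

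**Figure D4:**
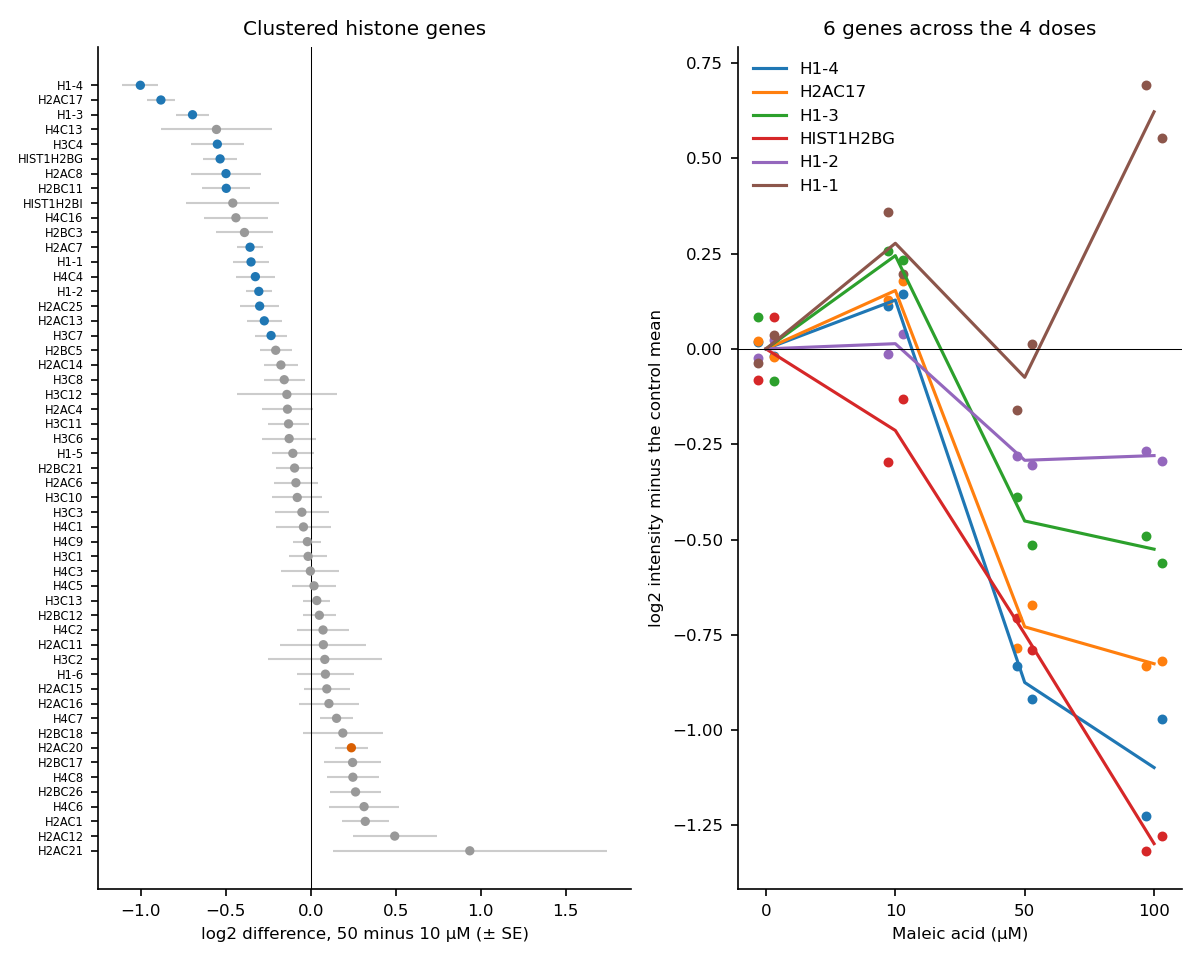
Left, log2 difference of each of the 53 histone genes (x axis, 50 minus 10 μM, bars for ± SE), with blue for genes lower and orange for the gene higher at an unadjusted p under 0.05. Right, log2 intensity minus the control mean (y axis) of 6 of the lower genes by maleic acid dose (x axis), with points for arrays and lines through the means of a dose, in which H1-1 alone ends above control.

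Histone promoters share short elements through which their transcription is coordinated, such as the CCAAT box, the TATA box and, in H1 genes, an AC-rich box. The 250 bases before the RefSeq start of the 3 genes with the largest differences are shown for these elements, 5′ to 3′ along the gene (GRCh38.p14, H1-4 at chr6:26156079-26156328 on the plus strand, H1-3 at chr6:26234988-26235237 and H2AC17 at chr6:27893186-27893435 on the minus strand). Capitals mark 3 motifs on either strand, namely CCAAT, the TATA box searched as TATAAA, and the core of the AC-rich box searched as AAACACA, which do not overlap one another here.
H1-4: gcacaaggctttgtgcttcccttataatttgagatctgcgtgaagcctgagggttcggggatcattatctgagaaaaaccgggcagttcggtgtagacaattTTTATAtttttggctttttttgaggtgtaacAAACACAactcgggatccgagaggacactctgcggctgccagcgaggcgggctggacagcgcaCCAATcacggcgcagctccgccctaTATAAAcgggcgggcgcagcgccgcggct
H1-3: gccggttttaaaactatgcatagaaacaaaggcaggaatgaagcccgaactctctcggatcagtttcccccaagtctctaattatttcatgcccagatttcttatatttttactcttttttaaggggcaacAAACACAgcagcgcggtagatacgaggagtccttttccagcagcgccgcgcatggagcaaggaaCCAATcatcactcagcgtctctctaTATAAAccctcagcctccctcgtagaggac
H2AC17: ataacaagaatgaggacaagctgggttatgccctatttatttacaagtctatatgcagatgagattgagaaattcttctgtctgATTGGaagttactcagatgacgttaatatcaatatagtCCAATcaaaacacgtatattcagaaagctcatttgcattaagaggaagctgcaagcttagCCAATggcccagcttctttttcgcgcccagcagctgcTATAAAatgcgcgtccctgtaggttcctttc
H1-4 and H1-3 held all 3 elements in the same order, with AAACACA upstream of CCAAT and a TATAAA near the start (H1-4 has another TATAAA farther upstream, on the reverse strand), while H2AC17 held CCAAT and TATAAA but not AAACACA. Of the 46 histone genes with a promoter in the table, 40 held CCAAT (33% of 27305 promoters of all genes), 30 held TATAAA (11.1%) and 6 held AAACACA (4.95%). The 6 with AAACACA were the 6 H1 genes, H1-1 to H1-6 as measured, and therefore included H1-5 and H1-6, which were not among the lower genes. Of the 13 lower genes with a promoter in the table, 12 held CCAAT, 9 held TATAAA and 4 held AAACACA. These matches describe letters in the reference and not bound factors.

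Genes of the cell cycle were compared because histone mRNA accompanies DNA replication. Of 40 genes of G1 and S phase, 2 were lower (5%, against 4.1% of all genes) and 1 was higher at unadjusted p (2.5%, against 4.78%). GINS1, a subunit of the replicative helicase, read 9.75 and 9.58 at 10 μM and 9.12 and 9.21 at 50 μM (−0.50, SE 0.10), and CDC6, a loading factor of replication origins, differed by −0.23 (SE 0.08). CCND1, cyclin D1, was 0.20 higher (SE 0.08). Of 49 mitosis genes, 3 were lower (6.12%) and 0 higher, so both lists were near the shares of all genes. The 3 were BUB1B at −0.35 (SE 0.12), HMMR at −0.24 (SE 0.10) and MAD2L1 at −0.20 (SE 0.08). The median difference was 0.00 for the first list and −0.04 for the second, and no gene of either was beyond array noise.

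Genes of the answer to thiol loss gave differences in both directions. Of 37 NRF2 targets, 6 were higher (16.2%, against 4.78% of all genes) and 2 lower (5.41%, against 4.1%) at unadjusted p. The list median was 0.10 and none was beyond array noise. Both 50 μM arrays were above both 10 μM arrays for 18 of the 37 (22.4% of all genes) and below them for 4 (18.5%). OSGIN1, an oxidative stress induced growth inhibitor, read 7.98 and 8.03 at 10 μM and 8.63 and 8.43 at 50 μM (0.52, SE 0.10), and was at 8.96 and 8.90 at 100 μM. CBR3, a carbonyl reductase, differed by 0.40 (SE 0.13). NFE2L2, which encodes NRF2 itself and was counted among the 6, differed by 0.24 (SE 0.08). NFE2L2 read 12.60 on both 50 μM arrays and 12.35 and 12.37 at 10 μM, below the 12.80 and 12.74 of control cells. The lower targets were AKR1B10, an aldo-keto reductase, at −0.62 (SE 0.23) and GCLC. GCLC, the catalytic subunit of the enzyme that limits glutathione synthesis, read 10.42 and 10.67 at 10 μM and 9.31 and 9.47 at 50 μM (−1.16, SE 0.37). Its control arrays were 9.96 and 8.73, a gap as wide as the difference itself. Targets that did not pass at unadjusted p included HMOX1 at 0.04 (SE 0.11), NQO1 at −0.12 (SE 0.14) and GCLM at 0.003 (SE 0.09). TXNRD1 at 0.20 (SE 0.09) did not pass either.

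Among 39 glutathione enzymes, 3 were higher and 3 lower at unadjusted p (7.69% each way, against 4.78% and 4.1% of all genes), with a median of 0.01. CHAC1, which degrades glutathione and is a target of ATF4, read 7.92 and 8.05 at 10 μM and 8.55 and 8.48 at 50 μM (0.53, SE 0.11). Beside GCLC, the lower genes were GGT7 at −0.44 (SE 0.09) and the transferase GSTM4 at −0.42 (SE 0.09). Of 39 genes of ATF4 and the unfolded protein response, 3 were higher (7.69%) and 0 lower, with a median of 0.12. The others were DDIT3, the stress factor CHOP, at 0.31 (SE 0.11) and DNAJB11, a co-chaperone of the endoplasmic reticulum, at 0.30 (SE 0.08). Both 50 μM arrays were above both 10 μM arrays for 16 of these 39 genes, against 22.4% of all genes. Of 22 heat shock genes and of 28 genes of the BCL2 family and caspases, none passed at unadjusted p in limma's test, and none was beyond array noise.

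Of 32 genes of insulin and IGF signalling, 4 were higher and 4 lower at unadjusted p (12.5% each way, against 4.78% and 4.1% of all genes), with a median of −0.02. IRS2 was the only gene of any list beyond array noise. PIK3R1, the regulatory subunit of PI3K, read 7.72 and 8.07 at 10 μM and 7.67 and 7.33 at 50 μM (−0.39, SE 0.16), and PDPK1, the kinase that activates AKT, differed by −0.30 (SE 0.09). TSC2, which restrains mTORC1, was 0.43 higher (SE 0.11) and the adaptor IRS4 was 0.50 higher (SE 0.11), with IRS4 under the background level on every array. For IGF1 the probes gave 0.11 (SE 0.09) and 0.36 (SE 0.24).

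Calcium was a subject of the study, which measured it in these cells. Of 35 genes of calcium stores and store-operated entry, 3 were higher (8.57%, against 4.78% of all genes) and 0 lower at unadjusted p, with a median of 0.05. ATP2A3, a calcium pump of the endoplasmic reticulum, read 9.40 and 9.73 at 10 μM and 9.90 and 9.97 at 50 μM (0.37, SE 0.12), MCUB, a subunit of the mitochondrial uniporter, differed by 0.30 (SE 0.10), and the third was CALB2. Of 11 genes that the study followed for calcium or by PCR, none passed at unadjusted p, none was beyond array noise, and the median was 0.07. GGT5 read 12.08 and 11.54 at 10 μM and 11.87 and 11.89 at 50 μM (0.07, SE 0.21). Probes of the glutamate receptor subunit GRIA1 differed by −0.11 to 0.12, those of the receptor GNRHR by −0.25 to 0.37 and those of S100A3 by −0.35 to 0.20. The 0.37 of GNRHR and the −0.35 of S100A3 came from probes under the background level on all 4 arrays. The brightest GNRHR and S100A3 probes gave 0.10 (SE 0.16) and 0.20 (SE 0.18). By PCR the study reported GGT5, GRIA1, GNRHR and S100A3 as raised with dose, relative to control cells. The reference gene HPRT1 read 13.99 and 13.60 at 10 μM and 13.77 and 13.65 at 50 μM, a difference of −0.09 (SE 0.18).

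Markers of the cell line were checked at both doses. All 16 measured noradrenergic neuroblastoma markers were above the median gene on all 4 arrays, against 2 of 8 fibroblast, 1 of 7 blood cell, 0 of 5 epithelial and 0 of 4 glial markers. Of the 16, 2 were higher at unadjusted p (12.5%, against 4.78% of all genes) and 0 lower. DBH, which makes noradrenaline, read 15.93 and 15.85 at 10 μM and 16.19 and 16.28 at 50 μM (0.34, SE 0.08), close to the 16.37 and 16.31 of control cells. NEFM, a neurofilament subunit, differed by 0.31 (SE 0.10).

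**Figure D5:**
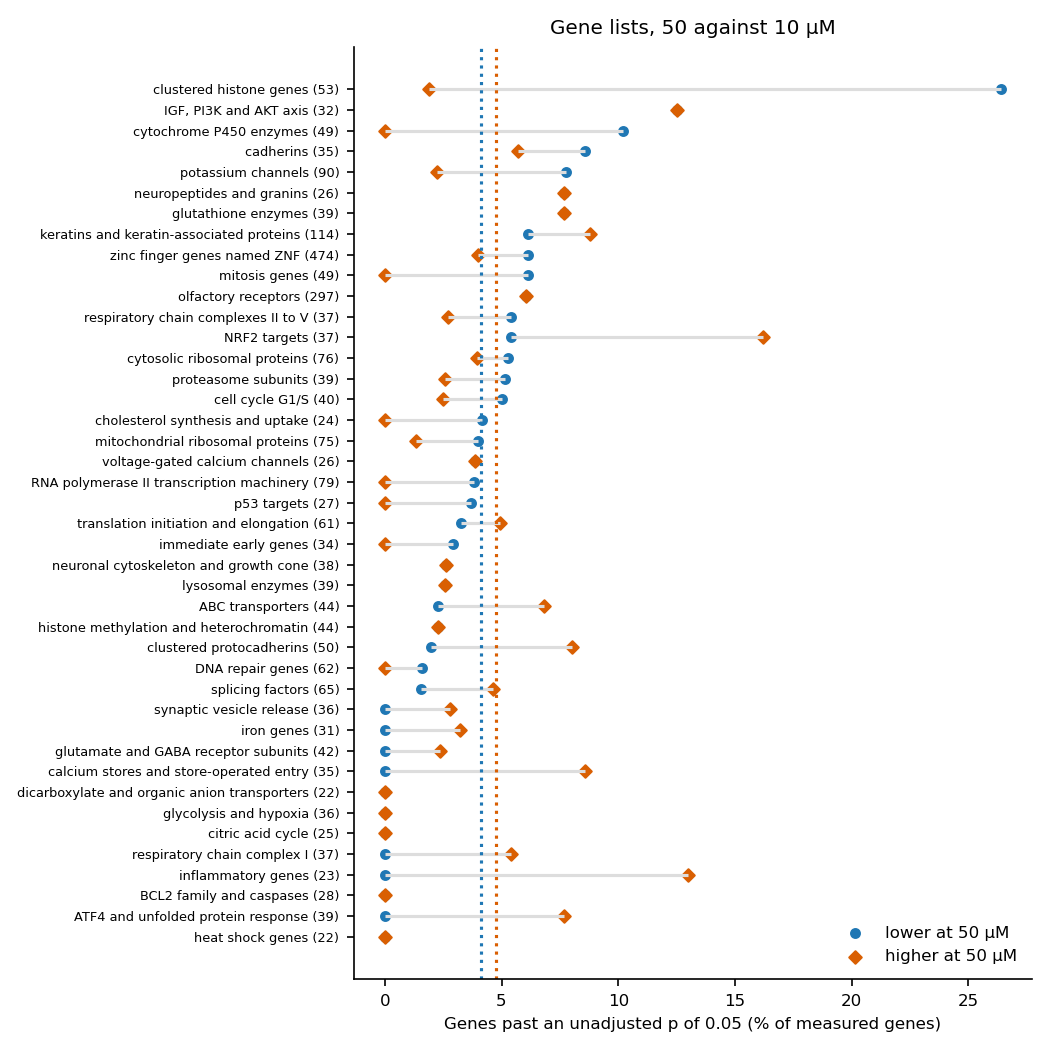
Share of the measured genes of each list (x axis, %) that were lower (blue circles) or higher (orange diamonds) at 50 than at 10 μM at an unadjusted p under 0.05, for the 42 lists of 20 or more measured genes, with the number measured in brackets and dotted lines at the shares of all genes (4.1% and 4.78%). Clustered histone genes lie farthest right among the lower shares at 26.4% and NRF2 targets among the higher shares at 16.2%.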

How the data were processed

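The authors scanned the arrays on an Agilent scanner, read them with GenePix, left out spots with a negative flag and scaled the values in Rosetta Resolver. The deposited values were linear intensities per probe, and no column of the deposited table was left out. The named median scaling was not visible in them, since array medians ran from 336 to 524. The background correction was not given in the sources used here. Values under 1 were set to 1, log2 transformed and quantile normalized over all 8 arrays (limma 3.58.1, R 4.3.3). One linear model with a mean per dose and empirical Bayes variances was fitted to the 8 arrays, and p-values were adjusted over all probes or all genes. Gene values are the mean over probes with 1 symbol. Of the 31741 probes, 24658 had 1 symbol, 1002 several and 6081 none in the annotation used, and 2177 symbols were updated through RefSeq. The number of arrays limits the precision.

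The rule for named genes took the 12 highest and 12 lowest bright probes beyond array noise, up to 6 probes each way that were at background level at 1 dose and at 100 or more at the other, up to 4 members per gene list, and the genes the study named. The members and the 56 lists were chosen with earlier results of these data known. Only CHMP4B, PTDSS1 and IRS2 came through the parts of the rule that use the test, so other genes were named after their values were seen. Alternatives were other scalings, a floor, an offset, a filter on dim probes, a block for the replicate number, 4 arrays only and leaving out each array. The procedure was tested on simulated data with 200 changed probes and made 8 false calls.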

Additional observations from a re-analysis of the deposited data

How the results depend on the processing

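With 1 RNA sample per dose, no alternative tests the difference between cultures, and dim probes limit the counts. Probes over 2-fold numbered 95 higher and 165 lower as reported. The lower count was 76 with median scaling and 79 with cyclic loess, against 73 and 65 higher. The pair of counts (higher, lower) was 404 and 29 without scaling, 28 and 81 with a floor of 32, 18 and 59 with an offset of 50, 38 and 94 without dim probes and 36 and 81 with only the 4 arrays. Leaving out 1 array gave 136 to 224 higher and 235 to 379 lower. The probes beyond array noise, 1 higher and 2 lower, became 0 and 0 under each scaling alternative, 2 and 2 with the floor or without dim probes, and 2 and 5 with the offset. Leaving out 1 array gave 1 to 12 higher and 2 to 9 lower. Without the first 10 μM array the counts were 224 and 250 over 2-fold and 12 and 6 beyond array noise, and without the first 50 μM array they were 154, 257, 2 and 9. Without the second 50 μM array they were 136, 379, 1 and 8. Without the second 10 μM array they were 187, 235, 1 and 2. The cause was not tested.

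The replicate numbers name technical arrays, and same-numbered arrays of 10 and 50 μM did not deviate together (r = −0.08, across probes, which are not independent replicates). The replicate block gave 0 higher and 2 lower probes beyond array noise and lost the call of CHMP4B (adjusted p from limma 0.113). In alternatives chosen after seeing the data, the 14 lower histone genes became 8 with median scaling, 1 without scaling and 8 to 13 when 1 array was left out, with 8 without the second 50 μM array. Without scaling, where the median of all genes was 0.45, 8 of these 14 genes no longer lay below 0, and the over 2-fold probes turned from mostly lower to mostly higher. The single probes beyond array noise (PTDSS1, IRS2 and CHMP4B) kept their direction in each alternative.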

Other observations

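Among membrane and signalling proteins outside the comparisons above, potassium channels gave 7 lower and 2 higher genes of 90 at an unadjusted p under 0.05 (7.78% and 2.22%, against 4.1% and 4.78% of all genes), with a list median of −0.01 and none beyond array noise. KCNQ5, which carries a current that restrains neuronal firing, read 7.72 and 7.75 at 10 μM and 7.53 and 7.34 at 50 μM (log2 difference −0.30, SE 0.09), and lay at 7.17 and 7.09 at 100 μM. The lower genes took different courses at 100 μM. KCNJ18, at −0.53 (SE 0.13), read 11.38 and 11.14 there, above the 9.35 and 9.54 of control cells. KCNJ1, an inward rectifier, was among the higher ones at 0.45 (SE 0.10). Of 49 cytochrome P450 genes, 5 were lower (10.2%) and 0 higher, with a median of 0.08. CYP4F22 differed by −0.76 (SE 0.16), while the lowest difference of the list was −2.60, its only 1 over 2-fold. Both 50 μM arrays were above both 10 μM arrays for 14 of the 49 (22.4% of all genes) and below them for 8 (18.5%).

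Inflammatory genes gave 3 higher (13%, against 4.78% of all genes) and 0 lower genes of 23, with a median of 0.16. CCL3, a chemokine, read 5.16 and 5.01 at 10 μM and 5.74 and 5.70 at 50 μM (0.64, SE 0.13), close to background level at both doses. Of 76 cytosolic ribosomal protein genes, 4 were lower (5.26%) and 3 higher (3.95%), near the shares of all genes (4.1% and 4.78%). RPLP1, a protein of the ribosomal stalk, had the highest difference at 0.83 (SE 0.17), reading 17.78 and 17.95 at 10 μM but 18.74 and 18.66 at 50 μM. Control cells gave 18.10 and 18.59. The 100 μM arrays gave the same 18.74 and 18.66 as the 50 μM arrays, and quantile normalization sets such values by the rank of the probe. The citric acid cycle (25 genes), glycolysis and hypoxia (36 genes) and ketone body and succinyl-CoA enzymes (13 genes) had 0 genes past an unadjusted p of 0.05 and 0 beyond array noise in limma's test.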
